A study of Homo sapiens with 18 samples.

Results

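Aminoacyl-tRNA synthetases, the enzymes that load each tRNA with its amino acid, were followed through treatment of C4-2B prostate cancer cells with VIC-1911, an inhibitor of the mitotic kinase AURKA, and olaparib, an inhibitor of the DNA repair enzyme PARP. The 36 genes were chosen by name from a written list and not by a cut on measured values, but with earlier results of these data known. They comprise 20 cytosolic and 16 mitochondrial enzymes among the 22136 genes of the 2-day count table and the 21276 genes of the 7-day count table. GARS and KARS, whose single genes supply the enzyme to both compartments, were placed with the cytosolic genes, and the mitochondrial genes are those whose symbols end in 2. The study asked how each drug and their combination alter gene expression in prostate cancer cells. Poly(A) RNA was sequenced from 18 libraries, all of the C4-2B line, labelled WT for genotype. DMSO vehicle and 0.1 μM of VIC-1911 were each given for 2 days (48 hours) in 3 libraries, and for 7 days 4 groups of 3 libraries received DMSO, VIC-1911 at that dose, olaparib at 1 μM, or both drugs together. C4-2B is an established human prostate cancer line that grows without androgen, so the values describe 1 cell line.

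Cytosolic synthetases charge tRNAs for translation of nuclear-encoded messages, and 8 of the genes measured here encode subunits of a large multisynthetase complex (DARS, EPRS, IARS, KARS, LARS, MARS, QARS, and RARS). A separate set of nuclear genes encodes the enzymes imported into mitochondria, where they serve the translation of a few respiratory chain subunits. Many cytosolic synthetase genes are known targets of ATF4, a transcription factor that is made when amino acids are short or when the kinases of the integrated stress response are active, and that binds C/EBP-ATF response elements in promoters. Genes of amino acid transport and biosynthesis are other known targets.

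Between 3245273 and 7184420 reads per library were counted on genes after 2 days, and between 4967931 and 19684208 after 7 days. All 36 genes passed the filter of 10 counts in at least 3 libraries in every comparison, and their lowest count in any library was 33. The labels do not say whether replicates came from separate cultures, so p-values measure the spread between these libraries, which may be technical. All 7 prostate luminal markers checked, KLK2 among them, were detected. The 7 markers of other cells summed to between 1.60 and 2.66 FPKM (fragments scaled to gene length and library depth). Among them PTPRC (leukocytes), PECAM1 (endothelium), and DCN (fibroblasts) were at or near 0. COL1A1 (fibroblasts) reached 2.27 FPKM and VWF (endothelium) 0.754 FPKM at 7 days. COL1A1 was lower after 2 days of VIC-1911 (log2 fold change -0.49). At 7 days COL1A1 was higher under olaparib and the combination (0.28 and 0.43), COL3A1 was higher under the combination (1.28), and VWF was lower under both (-1.19 and -1.22). The COL3A1 values lay near the floor, with means of 0.178 FPKM under the combination and 0.0652 FPKM with vehicle. The summed luminal markers were lower in the treated libraries after 7 days (2600 to 3020 FPKM) than in the vehicle libraries (4080 to 4110 FPKM), with 4, 5, and 5 of the 7 lower and 1 of 7 higher under VIC-1911, olaparib, and the combination (after 2 days, 1 lower and 3 higher). The part of this shift in the synthetase results was not tested, and in bulk RNA fewer cells of a kind and less RNA per cell cannot be told apart. In the library numbering, the 7-day libraries fall into a first run of numbers (vehicle and VIC-1911) and a second (olaparib, alone or combined). The word run means only this numbering here, as the labels do not say whether it marks separate preparation, separate sequencing, or neither. Run and drug therefore cannot be told apart where olaparib or the combination is compared with vehicle, or the combination with VIC-1911, whereas the comparisons of VIC-1911 to vehicle and of the combination to olaparib each stay within a run. The difference between those 2 effects of VIC-1911 is also one between runs, so olaparib and run cannot be told apart in it. The 3 comparisons with vehicle at 7 days share the same 3 vehicle libraries. The 2-day libraries are numbered apart from all 7-day ones. Time and library set therefore cannot be told apart where levels or effects of the 2 times are set side by side.

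The promoters were searched for the C/EBP-ATF response element, spelled TGATGNAA, on both strands from 250 bases before to 50 bases after the transcription start (RefSeq, GRCh38.p14). Of all 35116 windows of this length, 1270 (3.62%) held it, and counted by gene, 1217 of 27305 (4.46%) held it in at least 1 window. It was found in 7 of the 16 cytosolic synthetase genes with a window (none was at hand for DARS, LARS, VARS, and YARS) and in 1 of the 14 mitochondrial ones (none for AARS2 and VARS2). The matches are shown because all 7 cytosolic genes that held one were among those with lower RNA under treatment, as described below. Each line gives 30 bases, 5′ to 3′ on the gene's own strand, with the match in capitals.
AARS: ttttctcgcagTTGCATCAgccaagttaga
CARS: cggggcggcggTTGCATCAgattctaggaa
GARS: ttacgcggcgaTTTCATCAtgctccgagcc
IARS: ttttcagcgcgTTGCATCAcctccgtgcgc
MARS: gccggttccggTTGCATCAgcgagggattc
NARS: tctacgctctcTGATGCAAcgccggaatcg
TARS: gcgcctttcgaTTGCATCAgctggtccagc
YARS2: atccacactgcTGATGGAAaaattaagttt

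The 8 stretches lie at chr16:70289675-70289704 (AARS, minus strand), chr11:3057407-3057436 (CARS, minus), chr7:30594834-30594863 (GARS, plus), chr9:92293692-92293721 (IARS, minus), chr12:57488053-57488082 (MARS, plus), chr18:57621804-57621833 (NARS, minus), chr5:33440956-33440985 (TARS, plus), and chr12:32756076-32756105 (YARS2, minus). In CARS, IARS, MARS, NARS, and TARS the first base of the match lay within 15 bases of the start (positions -2, -13, -4, 15, and 3). The match stood at position -33 in GARS, and farther upstream in AARS (-187) and YARS2 (-197). GARS, TARS, and CARS have a second annotated start whose window held no match. A match is a description of letters and not evidence of binding, which was not measured.

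The fuller promoter context, from 200 bases before to 30 bases after the start, is given for IARS, a complex member with a match at the start, and for FARSA and FARSB, the cytosolic genes that rose most under VIC-1911 after 7 days and held no match. They lie at chr9:92293668-92293897, chr19:12933682-12933911, and chr2:222656063-222656292, each on the minus strand.
IARS: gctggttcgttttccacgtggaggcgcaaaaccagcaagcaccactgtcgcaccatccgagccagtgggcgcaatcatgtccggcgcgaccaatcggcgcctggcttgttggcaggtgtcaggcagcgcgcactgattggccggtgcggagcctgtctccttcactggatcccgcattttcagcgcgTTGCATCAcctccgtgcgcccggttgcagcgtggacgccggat
FARSA: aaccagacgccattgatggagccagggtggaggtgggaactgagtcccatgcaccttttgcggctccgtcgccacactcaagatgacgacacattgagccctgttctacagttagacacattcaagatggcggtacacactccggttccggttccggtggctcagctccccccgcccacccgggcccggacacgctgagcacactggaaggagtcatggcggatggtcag
FARSB: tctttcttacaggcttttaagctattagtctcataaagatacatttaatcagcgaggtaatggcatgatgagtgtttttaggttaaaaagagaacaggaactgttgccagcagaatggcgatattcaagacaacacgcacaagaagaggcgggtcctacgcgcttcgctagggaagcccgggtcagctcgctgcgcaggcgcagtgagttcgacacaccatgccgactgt

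Cytosolic synthetase RNA took a smaller share of each library under every treatment, whereas the mitochondrial share stayed within or above the vehicle range of its time. The 20 cytosolic genes held 0.608% ± 0.00208 (SD, n = 3) of all counts in the 2-day vehicle libraries and 0.543% ± 0.0122 under VIC-1911. After 7 days they held 0.655% ± 0.0131 in the vehicle libraries, 0.430% ± 0.00666 under VIC-1911, 0.416% ± 0.00300 under olaparib, and 0.413% ± 0.00346 under the combination. The ranges of treated and vehicle libraries did not overlap at either time. The 16 mitochondrial genes held between 0.0975% and 0.103% in the 2-day vehicle libraries and between 0.0996% and 0.101% under VIC-1911. After 7 days their share was 0.0816% ± 0.00206 with vehicle, 0.0891% ± 0.000436 with VIC-1911, 0.0867% ± 0.00135 with olaparib, and 0.0820% ± 0.000404 with the combination. No test was made on these shares.

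**Figure D1:**
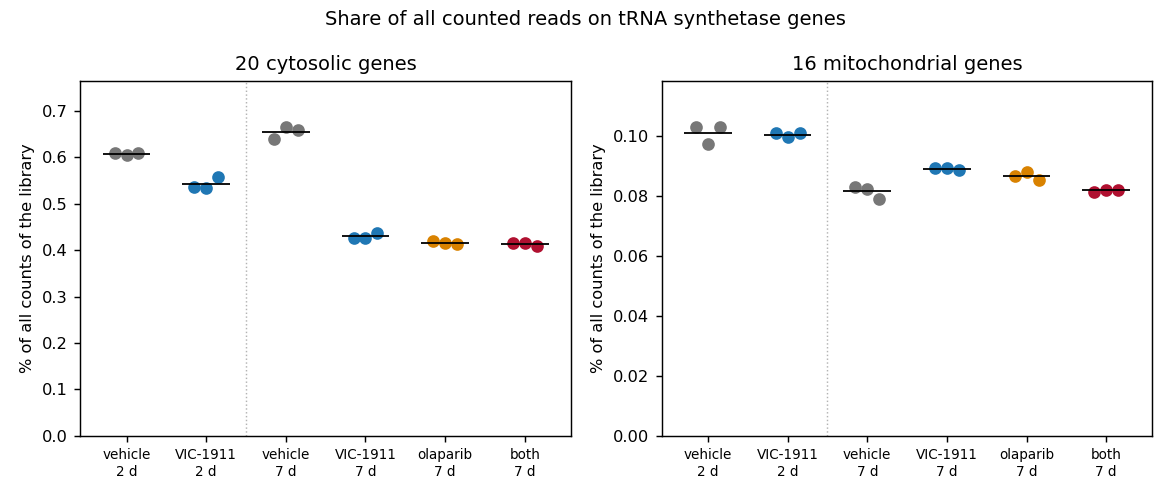
Percent of all counted reads that fell on the 20 cytosolic (left) and the 16 mitochondrial (right) synthetase genes; each point is 1 library, each line the mean of 3, and both axes start at 0. The cytosolic share lies between 0.640% and 0.665% in the 7-day vehicle libraries and between 0.409% and 0.438% in the 9 treated ones, while the mitochondrial share of the treated libraries lies at or above the lower end of the vehicle range.

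To learn how early the change set in, VIC-1911 was compared with vehicle after 2 days. The genes AARS, CARS, EPRS, GARS, IARS, MARS, NARS, SARS, and YARS, were lower, 9 of the 20 cytosolic genes, against 7.19% of all 12241 genes tested (edgeR's quasi-likelihood test, Benjamini-Hochberg adjusted p under 0.05, here called passing). KARS, RARS, VARS, and FARSB were higher, 4 of 20, against 7.5% of all genes. The median log2 fold change of the cytosolic genes was -0.08, and that of all genes tested was -0.00337. Changes were modest, the largest being a 1.39-fold decrease of CARS and MARS, so none reached the 1.5-fold limit that 1.33% of all genes passed in the lower and 0.825% in the higher direction. Of the 16 mitochondrial genes, EARS2, MARS2, and HARS2 were higher and TARS2 was lower, with a median of 0.04. The 4 higher cytosolic genes became 1 without vehicle replicate 1 and 2 without VIC-1911 replicate 1 or 3. The 3 higher mitochondrial genes became 1 without vehicle replicate 3 or VIC-1911 replicate 2 or 3, and 2 without any other, and TARS2 did not pass without vehicle replicate 1 or 3 or VIC-1911 replicate 1.

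GARS, which makes glycyl-tRNA in both the cytosol and mitochondria, had the highest FPKM of the synthetases in vehicle-treated cells and the largest decrease under each 7-day treatment. Its level after 2 days was 144, 142, and 143 FPKM with vehicle and 99.5, 104, and 110 FPKM with VIC-1911. After 7 days it was 177, 181, and 172 FPKM with vehicle, 53.1, 55.6, and 55.8 FPKM with VIC-1911, 45.6, 47.6, and 45.6 FPKM with olaparib, and 45.1, 48.5, and 45.1 FPKM with the combination. Every treated library lay below every vehicle library of its time. The 7-day treated libraries lay below the 2-day ones, where time and library set cannot be told apart. The log2 fold change of VIC-1911 was -0.45 (standard error 0.047, adjusted p = 3.8e-09, edgeR) after 2 days and -1.73 (standard error 0.044, adjusted p = 1.5e-23) after 7 days. Olaparib gave -1.95 (adjusted p = 9.1e-25) and the combination gave -1.94 (adjusted p = 6.3e-25), each with edgeR.

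After 7 days the same 12 cytosolic genes were lower under VIC-1911, olaparib, and the combination: AARS, CARS, EPRS, GARS, IARS, LARS, MARS, NARS, SARS, TARS, WARS, and YARS. The share of all 14409 genes that passed in this direction was 25.8% under VIC-1911, 25.9% under olaparib, and 28% under the combination. Fewer genes passed with at least a 2-fold decrease, 3.43%, 3.53%, and 4.0% of all genes, and among the 20 cytosolic synthetases 7, 8, and 8 did. The 7 genes at least 2-fold lower under VIC-1911 were AARS, CARS, GARS, IARS, MARS, SARS, and YARS, and WARS joined them under the other 2 treatments. The cytosolic medians were -0.58, -0.55, and -0.52 on the log2 scale, and those of all genes were -0.00531, 0.0101, and 0.00465. KARS, RARS, VARS, FARSA, and FARSB were higher under all 3 treatments (5 of 20, beside 26.6%, 28.1%, and 28.6% of all genes), and DARS, HARS, and QARS passed in none. Without vehicle replicate 1 or 2, 3 rather than 5 cytosolic genes were higher under olaparib.

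**Figure D2:**
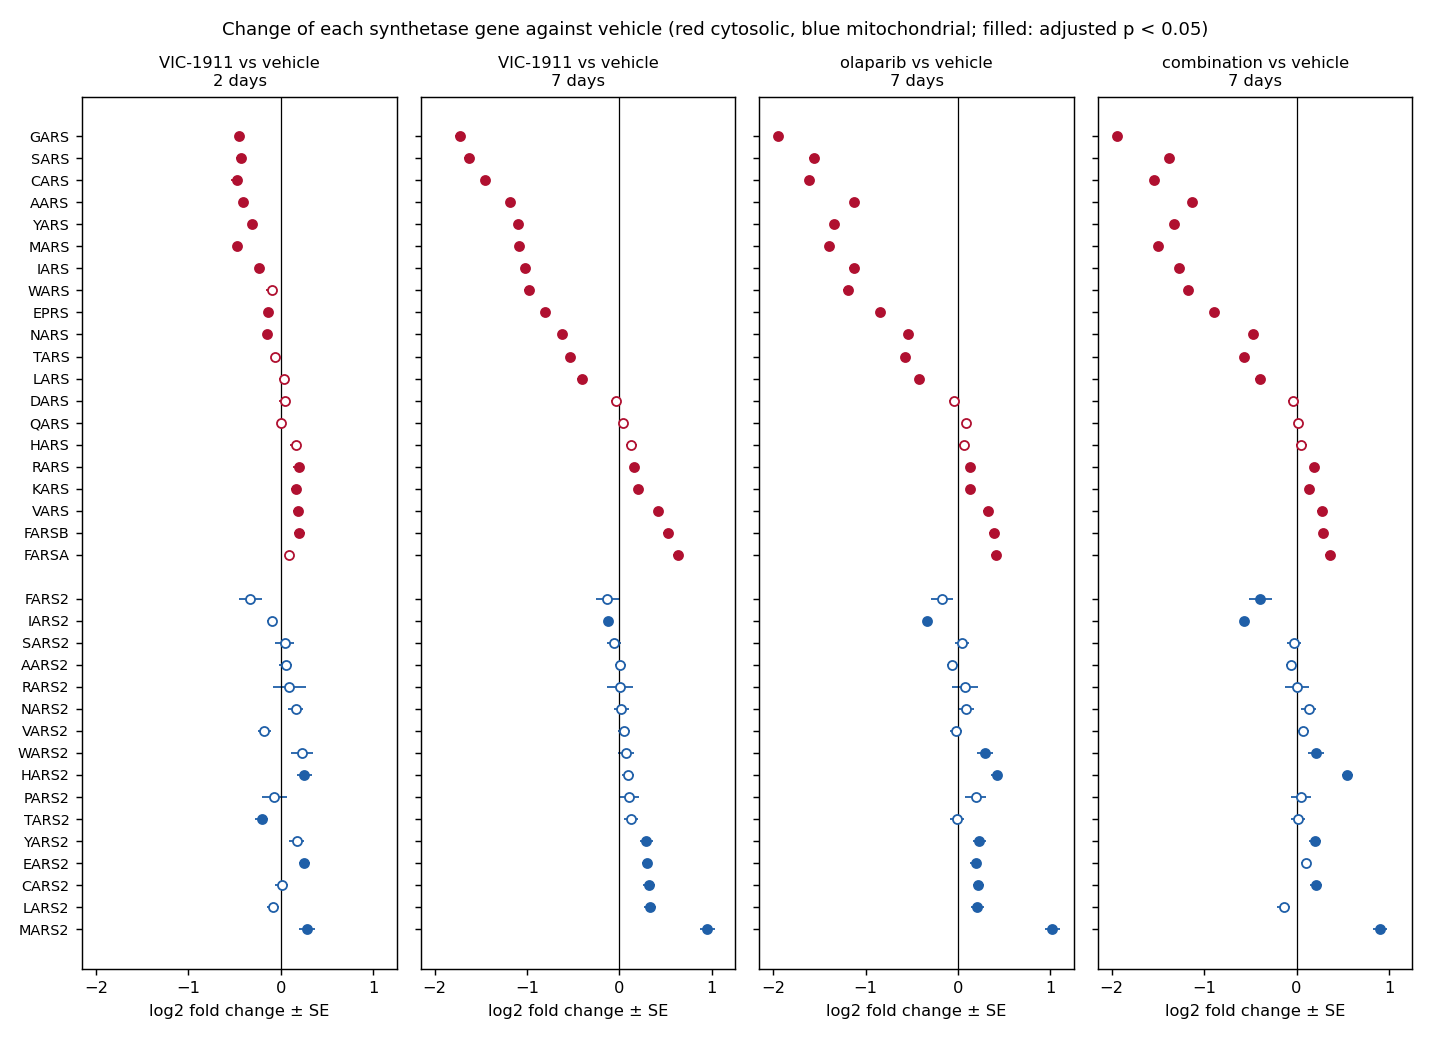
Log2 fold change against vehicle of each synthetase gene (points, with standard errors as bars) in 4 comparisons, the 20 cytosolic genes in red above the 16 mitochondrial genes in blue, with filled points for an adjusted p under 0.05. The cytosolic points spread from -0.48 to 0.20 after 2 days of VIC-1911 and from -1.73 to 0.63 after 7 days, while most mitochondrial points stay near 0 and MARS2 stands to the right of the others at 7 days.

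SARS, the seryl-tRNA synthetase, was 52.4, 50.1, and 51.1 FPKM with vehicle and 36.9, 35.5, and 39.5 FPKM with VIC-1911 after 2 days. At 7 days its level was 66.8, 69.3, and 72.6 FPKM with vehicle, 22, 23.4, and 24.2 FPKM with VIC-1911, 22.8, 24.4, and 24.3 FPKM with olaparib, and 26.9, 26.7, and 26.8 FPKM with the combination. The groups did not overlap with vehicle, and the combination libraries were the highest of the treated ones. The log2 fold changes against vehicle after 7 days were -1.63, -1.56, and -1.38 (standard errors 0.047, 0.047, and 0.046, edgeR adjusted p = 3.3e-22, 9.0e-22, and 8.6e-21). CARS, the cysteinyl-tRNA synthetase, was 25.4, 24.3, and 24.3 FPKM with vehicle and 16.2, 17.9, and 18.2 FPKM with VIC-1911 after 2 days. In the 7-day libraries it was 28, 29.2, and 29.0 FPKM with vehicle, 10.9, 10.7, and 11 FPKM with VIC-1911, 9.48, 9.38, and 9.69 FPKM with olaparib, and 10.1, 9.95, and 9.56 FPKM with the combination. CARS thus stood at 37.8%, 33.1%, and 34.4% of its 7-day vehicle mean. An annotated antisense gene overlaps CARS, and the strand setting of the counting is not given in the sources used here, so its values are uncertain to that extent.

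AARS, the alanyl-tRNA synthetase, next to GARS in FPKM with vehicle, was 139, 132, and 137 FPKM with vehicle and 93.6, 99.5, and 108 FPKM with VIC-1911 after 2 days. The 7-day libraries had 158, 158, and 157 FPKM with vehicle, 69.4, 75.6, and 71.0 FPKM with VIC-1911, 72.2, 75.6, and 71.5 FPKM with olaparib, and 74.4, 72.2, and 70.1 FPKM with the combination. The 3 treatments left AARS at similar levels, between 45.6% and 46.3% of the vehicle mean. YARS, the tyrosyl-tRNA synthetase, was 79.4, 75.2, and 75.9 FPKM with vehicle and 58.9, 59.2, and 64.9 FPKM with VIC-1911 after 2 days. Its 7-day values were 87.8, 85.7, and 84.7 FPKM with vehicle, 40.0, 41.5, and 42.3 FPKM with VIC-1911, 33.8, 35.3, and 34.2 FPKM with olaparib, and 35.3, 33.5, and 33.9 FPKM with the combination. Both sets of libraries with olaparib lay below the VIC-1911 libraries. The log2 fold changes of YARS after 7 days were -1.10, -1.34, and -1.33 (edgeR adjusted p = 5.0e-19, 6.1e-21, and 3.5e-21).

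**Figure D3:**
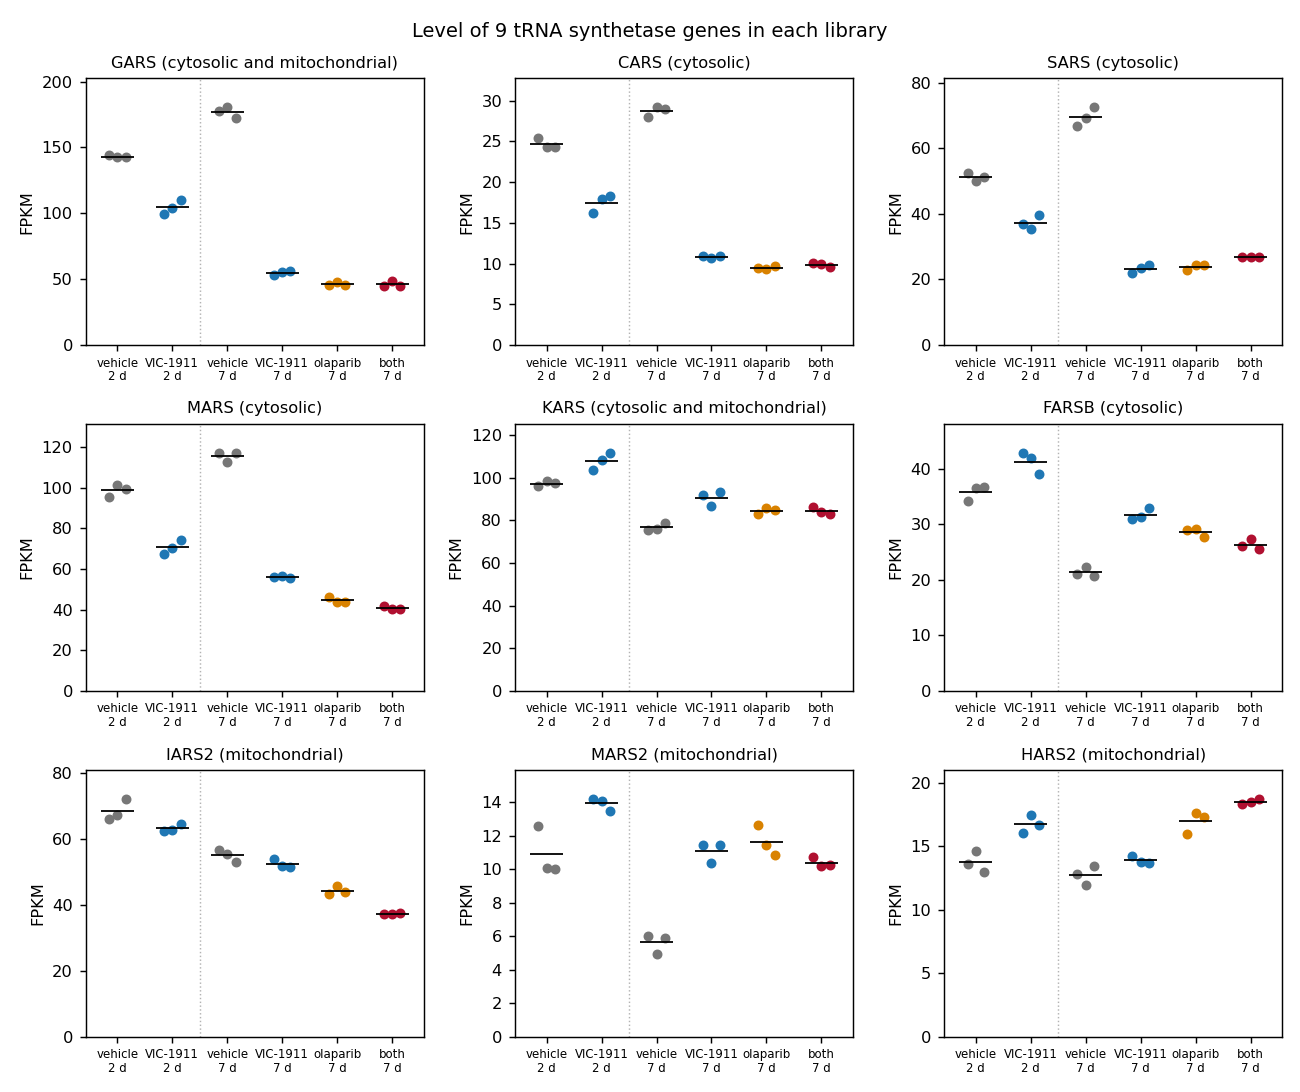
Level in FPKM of 9 synthetase genes in each of the 18 libraries (points) with the mean of each group of 3 (lines), each panel with its own axis from 0. Treated libraries of GARS, CARS, SARS, and MARS lie below the vehicle of their time, and those of KARS and FARSB lie above it. MARS2 is near 5.62 FPKM in the 7-day vehicle libraries and above 10 FPKM in all treated ones.

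Within the multisynthetase complex the subunits divided. MARS, the methionyl enzyme, was 95.4, 101, and 99.5 FPKM with vehicle and 67.2, 70.3, and 74.5 FPKM with VIC-1911 after 2 days. After 7 days it was 117, 113, and 117 FPKM with vehicle, 55.9, 56.5, and 55.6 FPKM with VIC-1911, 46.0, 43.8, and 43.7 FPKM with olaparib, and 41.7, 40.4, and 40.5 FPKM with the combination. The treated groups lay in that order, highest to lowest, without overlap, with log2 fold changes against vehicle of -1.09, -1.40, and -1.50 (standard errors 0.042, 0.043, and 0.042, edgeR adjusted p = 4.0e-19, 1.1e-21, and 1.3e-22). MARS overlaps DDIT3, itself an ATF4 target, and ARHGAP9 in the annotation, so reads could be shared. IARS, for isoleucine, changed by -1.02, -1.13, and -1.27, and EPRS, whose single protein charges tRNAs with glutamate and with proline, by -0.81, -0.84, and -0.89 on the log2 scale. LARS, for leucine, was lower at 7 days only, by -0.41, -0.42, and -0.40, after a 2-day value of 0.03 (95% interval -0.06 to 0.13). KARS and RARS, the lysyl and arginyl subunits, were higher at both times, and DARS and QARS passed in no comparison with vehicle. The 3 scaffold genes of the complex moved little: AIMP2 was lower under olaparib (-0.27, adjusted p = 7.3e-04, edgeR) and under the combination (-0.25), AIMP1 had 7-day values between -0.02 and 0.08, and EEF1E1 between -0.08 and 0.38 with standard errors of 0.19 to 0.20.

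KARS, whose single gene makes both the cytosolic and the mitochondrial lysyl enzyme, was 95.9, 98.6, and 97.4 FPKM with vehicle and 104, 108, and 112 FPKM with VIC-1911 after 2 days. At 7 days its level was 75.7, 75.8, and 78.6 FPKM with vehicle, 92.0, 86.9, and 93.2 FPKM with VIC-1911, 83.2, 85.6, and 84.6 FPKM with olaparib, and 86.2, 83.9, and 82.8 FPKM with the combination. All treated libraries lay above the vehicle libraries of their time, although the log2 fold changes were small (0.20, 0.13, and 0.14 after 7 days). KARS thus moved opposite to GARS, the other gene with a dual role. RARS was 47.8, 50.3, and 52.1 FPKM with vehicle and 55.5, 55.7, and 58.8 FPKM with VIC-1911 after 2 days. In the 7-day libraries it was 40.1, 41.8, and 42.6 FPKM with vehicle, 47.4, 48.0, and 48.3 FPKM with VIC-1911, 43.1, 46.9, and 46.8 FPKM with olaparib, and 47.0, 47.5, and 47.9 FPKM with the combination. The log2 fold changes of RARS after 7 days were 0.16, 0.13, and 0.19 (edgeR adjusted p = 0.00473, 0.0238, and 9.3e-04), with no overlap between treated and vehicle libraries.

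The phenylalanyl enzyme of the cytosol is built from the FARSA and FARSB subunits, and both were higher than vehicle after 7 days. FARSA was 106, 106, and 105 FPKM with vehicle and 110, 114, and 105 FPKM with VIC-1911 after 2 days, which overlapped. The 7-day libraries had 74.1, 67.8, and 73.9 FPKM with vehicle, 113, 112, and 118 FPKM with VIC-1911, 96.5, 101, and 92.7 FPKM with olaparib, and 97.1, 89.2, and 89.8 FPKM with the combination. FARSA had the highest FPKM in every group treated for 7 days, ahead of KARS, with VARS and VARS2 not ranked. Its log2 fold changes were 0.63, 0.41, and 0.36 (standard errors 0.048, 0.049, and 0.048, edgeR adjusted p = 4.3e-12, 2.5e-08, and 2.5e-07), so the VIC-1911 libraries stood highest. FARSB was 34.2, 36.5, and 36.7 FPKM with vehicle and 42.9, 42.0, and 39.0 FPKM with VIC-1911 after 2 days. Its 7-day values were 21.1, 22.4, and 20.7 FPKM with vehicle, 31.0, 31.4, and 33.0 FPKM with VIC-1911, 29.0, 29.2, and 27.8 FPKM with olaparib, and 26.2, 27.3, and 25.5 FPKM with the combination, in the same order as FARSA. Both genes overlap a long noncoding gene in the annotation. The vehicle means at 2 and 7 days were 105.7 and 71.9 FPKM for FARSA, and 35.8 and 21.4 FPKM for FARSB. All 7-day treated libraries of FARSB thus lay below its 2-day vehicle libraries. Differences in level between the vehicle groups of the 2 times were not tested.

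The FPKM of VARS, the valyl enzyme, rests on a gene length of about 34412 bases, worked out from its counts and FPKM, and that of VARS2 on about 28966 bases, each longer than the annotated span of the gene and against 2369 to 7310 bases for the other synthetases. Their FPKM can therefore be compared between libraries but not with other genes. VARS was 12.2, 11.9, and 12.6 FPKM with vehicle and 14.1, 13.5, and 13.0 FPKM with VIC-1911 after 2 days. After 7 days it was 12.2, 11.4, and 11.7 FPKM with vehicle, 16.1, 15.5, and 17.0 FPKM with VIC-1911, 15.1, 15, and 14.5 FPKM with olaparib, and 15.2, 13.8, and 13.7 FPKM with the combination. Its log2 fold changes were 0.42, 0.32, and 0.27 after 7 days (edgeR adjusted p = 7.5e-09, 7.9e-07, and 1.0e-05), and no treated library reached down to the vehicle libraries.

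From general knowledge, 13 genes were listed as ATF4 targets, in a list written with earlier results of these data known, so that the list is no independent evidence of its direction. After 7 days 12 of the 13 listed genes were lower under each treatment and VARS was higher, with medians of -1.02, -1.13, and -1.17 on the log2 scale. After 2 days 9 were lower and VARS was higher. Of the 7 cytosolic genes that were not listed, 4 were higher after 7 days (KARS, RARS, FARSA, and FARSB), and the medians of the 7 were 0.16, 0.13, and 0.14. The promoter match TGATGNAA was found in 7 of the 10 lower genes with a window, and these were AARS, CARS, GARS, IARS, MARS, NARS, and TARS. EPRS, SARS, and WARS were lower without a match. No match was found in the 4 higher genes with a window, nor in the 2 with a window that did not pass. Over all genes with a window only 4.46% held a match, so its absence does not set the higher genes apart.

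The 3 cytosolic genes that passed in no comparison with vehicle had narrow intervals. DARS, for aspartate, had log2 fold changes of -0.04 under each 7-day treatment, with a 95% interval of -0.15 to 0.06 under VIC-1911. QARS, for glutamine, had 0.04, 0.09, and 0.02, the widest limits being -0.06 and 0.17. Its olaparib libraries (77.65 to 78.6 FPKM) all lay above the vehicle libraries (69.27 to 75.71 FPKM), although QARS did not pass. HARS, for histidine, had 0.13 under VIC-1911 (95% interval 0.01 to 0.24, edgeR adjusted p = 0.0778), with all 3 VIC-1911 libraries above the vehicle libraries.

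The mitochondrial enzymes had medians nearer 0 than the cytosolic ones. These medians after 7 days were 0.08, 0.14, and 0.06 on the log2 scale, with 5, 7, and 5 of 16 higher and 1, 1, and 2 lower under VIC-1911, olaparib, and the combination. Over all genes 26.6%, 28.1%, and 28.6% were higher, and 25.8%, 25.9%, and 28% were lower. The higher counts under VIC-1911 and the combination were thus near the share of all genes, and that under olaparib was above it. The lower counts were below the share of all genes under each treatment. CARS2, MARS2, and YARS2 were higher and IARS2 was lower under all 3. AARS2, NARS2, PARS2, RARS2, SARS2, and VARS2 passed in none of the 4 comparisons with vehicle. Without combination replicate 3, the higher and lower counts under the combination were 3 and 1, and without VIC-1911 replicate 2 or 3 IARS2 did not pass under VIC-1911.

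MARS2, the mitochondrial methionyl enzyme, rose most among the mitochondrial genes. It was 12.6, 10.0, and 10.0 FPKM with vehicle and 14.2, 14.1, and 13.5 FPKM with VIC-1911 after 2 days. At 7 days its level was 6.03, 4.95, and 5.88 FPKM with vehicle, 11.5, 10.4, and 11.4 FPKM with VIC-1911, 12.7, 11.4, and 10.8 FPKM with olaparib, and 10.8, 10.2, and 10.2 FPKM with the combination. The treated libraries lay well above the 7-day vehicle libraries, but near the 2-day vehicle libraries, whose first replicate stood above the others. The log2 fold changes were 0.28 (standard error 0.087, adjusted p = 0.0229, edgeR) after 2 days and 0.95, 1.02, and 0.90 after 7 days (standard errors 0.079, 0.079, and 0.078, edgeR adjusted p = 2.8e-11, 5.3e-12, and 5.0e-11). Of the 36 genes it was the only one at least 2-fold higher under any treatment, and this under olaparib, beside 3.46%, 3.63%, and 4.55% of all genes under VIC-1911, olaparib, and the combination. Cytosolic MARS was lower by more than 2-fold in the same libraries, so the methionine pair moved apart under every treatment.

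IARS2, the isoleucyl enzyme of mitochondria, had the highest FPKM of the mitochondrial genes and was the one lower under all 3 treatments at 7 days. It was 66.1, 67.4, and 72.3 FPKM with vehicle and 62.3, 62.8, and 64.6 FPKM with VIC-1911 after 2 days, a difference that did not pass although no library overlapped (-0.10, edgeR adjusted p = 0.186). In the 7-day libraries it was 56.7, 55.5, and 53.2 FPKM with vehicle, 54.0, 51.7, and 51.4 FPKM with VIC-1911, 43.2, 45.8, and 43.8 FPKM with olaparib, and 37.2, 37.1, and 37.7 FPKM with the combination. The VIC-1911 libraries overlapped with vehicle, and the olaparib and combination libraries formed 2 lower steps. The log2 fold changes were -0.12, -0.33, and -0.57 (standard error 0.043 each, edgeR adjusted p = 0.0165, 1.6e-07, and 2.6e-12). EARS2, the glutamyl enzyme of mitochondria, was 19.3, 18.4, and 19.0 FPKM with vehicle and 22.3, 22.2, and 22.3 FPKM with VIC-1911 after 2 days. The 7-day libraries had 13.7, 14.9, and 14.7 FPKM with vehicle, 19.0, 18.1, and 17.7 FPKM with VIC-1911, 15.9, 17.1, and 16.7 FPKM with olaparib, and 14.4, 16.5, and 15.5 FPKM with the combination. EARS2 passed under VIC-1911 at both times (0.25 and 0.30, edgeR adjusted p = 0.00267 and 6.2e-05) and under olaparib (0.19, adjusted p = 0.00591), and overlapped with vehicle under the combination (0.10, 95% interval -0.02 to 0.21). It shares bases with GGA2 in the annotation.

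The other mitochondrial genes changed by smaller amounts or under some treatments. HARS2, the histidyl enzyme of mitochondria, was higher under olaparib (0.42, standard error 0.061, edgeR adjusted p = 9.2e-07) and the combination (0.55, standard error 0.059, adjusted p = 4.1e-09), from 12 to 13.5 FPKM with vehicle to 18.4 to 18.8 FPKM with the combination. Under VIC-1911 alone HARS2 had 0.09 after 7 days (95% interval -0.03 to 0.21). The starts of HARS2 and HARS lie 85 bases apart on opposite strands of chromosome 5, yet HARS had 0.06 under olaparib and 0.05 under the combination. CARS2 was higher by 0.32, 0.22, and 0.21, and YARS2, the mitochondrial gene with a promoter match, by 0.29, 0.23, and 0.20 on the log2 scale. WARS2 passed under olaparib (0.29) and the combination (0.21, edgeR adjusted p = 0.041), and FARS2, a single-chain phenylalanyl enzyme, was lower under the combination (-0.39, edgeR adjusted p = 0.00724).

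Cytosolic and mitochondrial enzymes for the same amino acid were set side by side in 17 pairs, with EPRS paired to EARS2 and PARS2, and FARSA and FARSB each paired to FARS2. The cytosolic log2 fold change was the lower of the 2 in 11 pairs after 2 days of VIC-1911, and in 12, 13, and 13 pairs after 7 days of VIC-1911, olaparib, and the combination. The cytosolic gene alone was lower in 11 pairs under each 7-day treatment. In 1 pair, IARS with IARS2, both were lower. Under VIC-1911 after 7 days 5 pairs had a lower cytosolic and a higher mitochondrial gene, and these were CARS with CARS2, EPRS with EARS2, LARS with LARS2, MARS with MARS2, and YARS with YARS2. In the phenylalanine, arginine, and valine pairs the cytosolic gene was higher and the mitochondrial one did not pass.

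**Figure D4:**
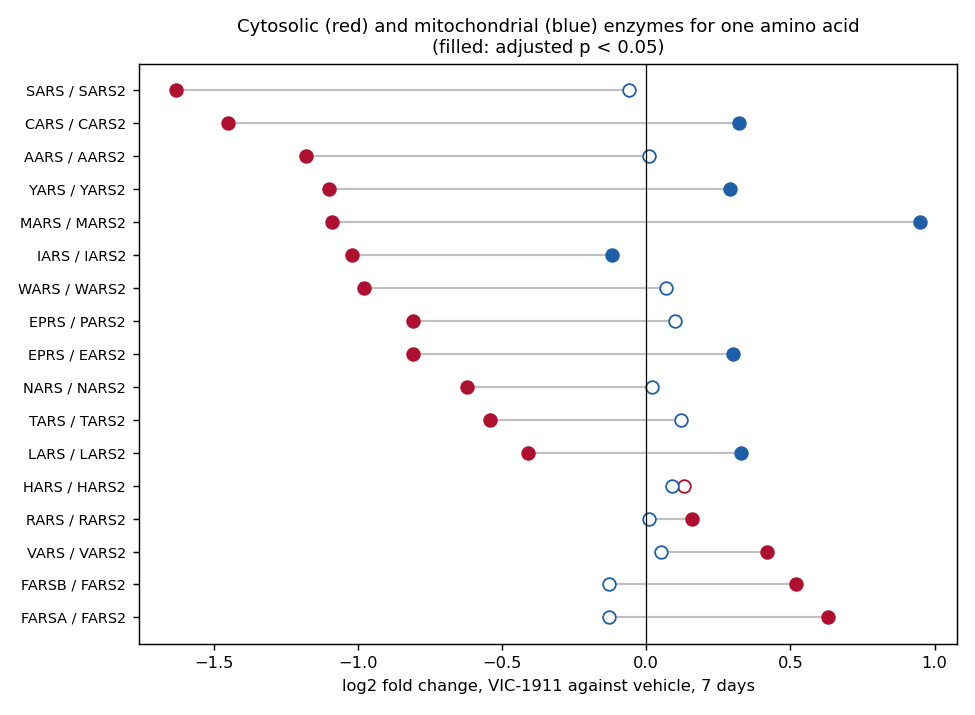
Log2 fold change of VIC-1911 against vehicle after 7 days for the cytosolic (red) and mitochondrial (blue) enzyme of 17 amino acid pairs, joined by a line, with filled points for an adjusted p under 0.05. The upper 12 pairs have the red point to the left, with the methionine pair spanning from -1.09 to 0.95, and the lower 5 have it to the right.

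To see what each drug added to the other, the combination was compared with each single drug after 7 days. Against olaparib, within a run, 1 of 36 genes was higher, SARS (0.18, standard error 0.048, edgeR adjusted p = 0.0132), beside 4.55% of all genes. IARS2 (-0.23, standard error 0.044, edgeR adjusted p = 4.8e-04) and LARS2 (-0.35, standard error 0.069, adjusted p = 9.8e-04) were lower, beside 6.95% of all genes. With edgeR, 0 cytosolic genes were lower (3 at an unadjusted p under 0.05, 0 by DESeq2, and 1 by limma) and 0 mitochondrial genes were higher (1 at an unadjusted p under 0.05, and 0 by DESeq2 and by limma). None of these changes reached 2-fold, as 0.291% of all genes did in the higher and 0.0902% in the lower direction. SARS did not pass without olaparib replicate 1 or combination replicate 3, and 1 cytosolic gene was lower without combination replicate 2. The interval for GARS was -0.08 to 0.10 and that for AARS -0.09 to 0.08 on the log2 scale. LARS2, the leucyl enzyme of mitochondria, was between 10.7 and 12.5 FPKM with olaparib and between 8.42 and 9.73 FPKM with the combination, beside 8.77 to 10.4 FPKM with vehicle.

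Against VIC-1911, where run and drug cannot be told apart, 8 cytosolic and 3 mitochondrial genes were lower in the combination and 2 and 1 were higher, beside 22.2% lower and 20.7% higher of all genes. MARS was lower by -0.41 (standard error 0.043, edgeR adjusted p = 5.5e-09), and GARS, IARS, YARS, and WARS by -0.19 to -0.25 on the log2 scale. The higher genes FARSA, FARSB, and VARS stood lower in the combination than under VIC-1911 (-0.27, -0.23, and -0.15). HARS2 was higher by 0.46, SARS by 0.25, and NARS by 0.15. LARS2 and IARS2 were lower here as well (-0.46 and -0.44), and EARS2 by -0.20. Again none reached 2-fold, beside 2.23% of all genes higher and 1.82% lower.

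The effect of VIC-1911 in the presence of olaparib differed from its effect alone for 21 of the 36 genes. The test of this difference was a drug interaction built from the 2 within-run contrasts. These contrasts lie in different runs, so a VIC-1911 effect changed by olaparib and one that differs between runs cannot be told apart. The interaction was positive for the 12 cytosolic genes that fell, beside 21.0% of all genes. It was negative for KARS, VARS, FARSA, and FARSB and for 5 mitochondrial genes (CARS2, EARS2, LARS2, MARS2, and YARS2), beside 22.9% of all genes. These 9 of 36 genes were near that share. GARS changed by -1.73 under VIC-1911 alone and by 0.01 when VIC-1911 was added to olaparib, a difference of 1.75 (standard error 0.063, edgeR adjusted p = 3.1e-19). SARS had the largest difference, 1.80 (standard error 0.067, adjusted p = 5.4e-19, edgeR), and MARS2 the most negative, -1.07 (standard error 0.11, adjusted p = 2.0e-09, edgeR). IARS2 did not differ detectably (-0.11, 95% interval -0.23 to 0.01), and neither did HARS2 (0.04, 95% interval -0.13 to 0.20).

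**Figure D5:**
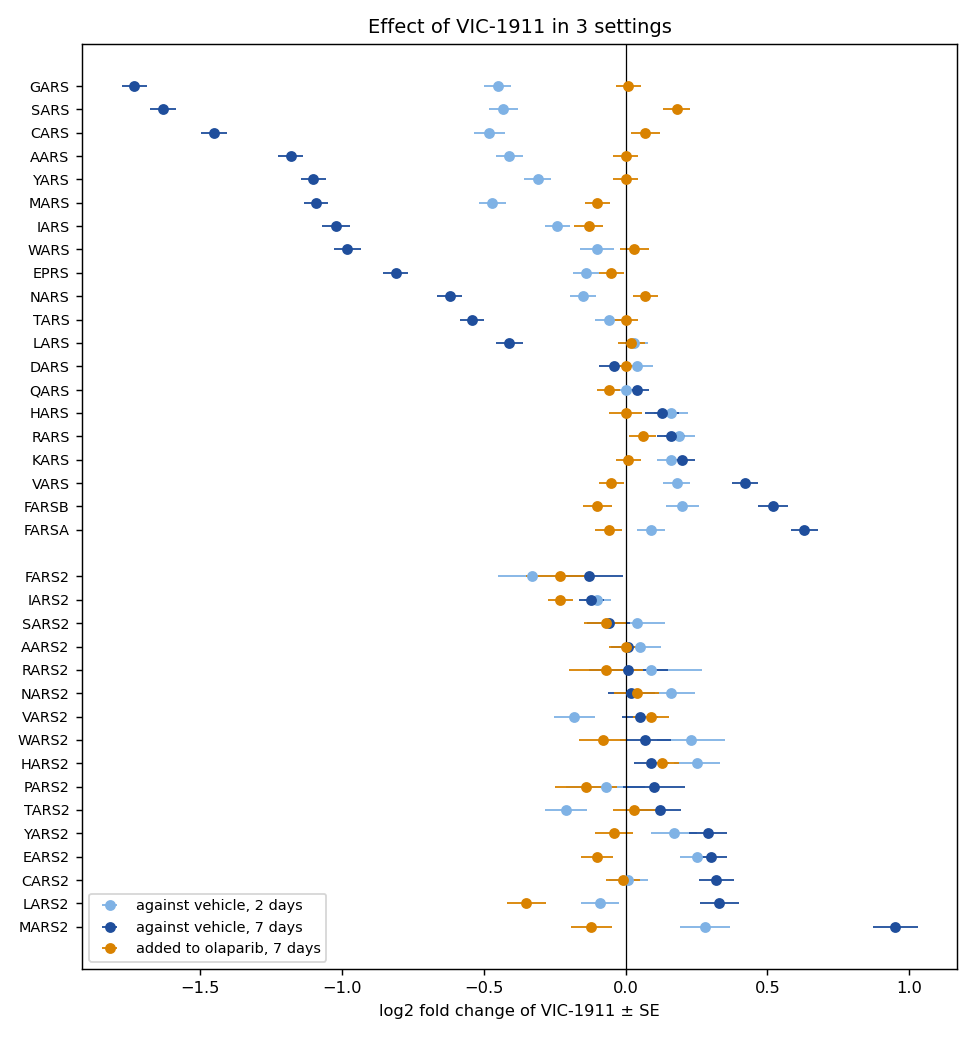
Log2 fold change of VIC-1911 with its standard error for each synthetase gene in 3 settings: against vehicle after 2 days (light blue), against vehicle after 7 days (dark blue), and added to olaparib for 7 days (orange). The 7-day effect runs from -1.73 (GARS) to 0.95 (MARS2), while all 36 orange points lie between -0.35 and 0.18.

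The VIC-1911 effect also differed between the times, in a fit of the vehicle and VIC-1911 libraries of both. The 12 cytosolic genes that were lower at 7 days had a more negative effect at 7 days than at 2 days, beside 14.2% of all 13832 genes tested. Values ran from -0.45 for LARS and -0.49 for NARS to -1.21 for SARS and -1.30 for GARS (standard error 0.065, edgeR adjusted p = 3.4e-21). FARSA (0.53), FARSB (0.30), and VARS (0.23), and the mitochondrial genes MARS2 (0.65), LARS2 (0.40), TARS2 (0.32), and CARS2 (0.29), had a more positive effect at 7 days, beside 14.6% of all genes. KARS, higher at both times, had a difference of 0.03 (95% interval -0.10 to 0.16).

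The order of the levels within each group, with VARS and VARS2 left out for the length behind their FPKM, changed with treatment. In the 7-day vehicle libraries GARS (177 ± 4.18 FPKM, SD, n = 3) stood above AARS (158 FPKM), MARS (116 FPKM), and IARS (103 FPKM), and the libraries of IARS overlapped with those of NARS, the next gene. Under VIC-1911 after 7 days FARSA (114 FPKM), KARS (90.7 FPKM), and QARS (76.8 FPKM) led, with no overlap between neighbours, and GARS came eighth, overlapping with MARS above it and IARS2 below it. Under olaparib and the combination GARS came ninth. QARS stood at 72.4 FPKM with vehicle and did not pass. Among the mitochondrial genes IARS2 stayed highest in all 6 groups.

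Other genes of tRNA charging and translation were counted from lists. Over all genes, 26.6%, 28.1%, and 28.6% were higher and 25.8%, 25.9%, and 28% lower under the 3 treatments at 7 days. After 2 days of VIC-1911, 7.5% were higher and 7.19% lower. Of 9 tested genes for other charging and editing steps, 3, 3, and 2 were higher and 2, 1, and 1 lower after 7 days of VIC-1911, olaparib, and the combination, with medians of 0.14, 0.08, and 0.02 (none passed after 2 days by edgeR, and none at an unadjusted p under 0.05). MTFMT, which formylates the mitochondrial initiator methionyl-tRNA made by MARS2, was higher by 0.45, 0.37, and 0.41. DTD1, which removes mischarged D-amino acids from tRNA, was lower by -0.42, -0.46, and -0.63. Of 21 tRNA processing genes, 9, 9, and 11 were higher and 2 lower in each after 7 days (3 and 2 after 2 days), with medians of 0.11, 0.10, and 0.30 after 7 days and 0.07 after 2 days. Both lower genes were the same throughout, XPOT, the exporter of tRNA from the nucleus (-0.97, -1.14, and -1.25), and TSEN15, a subunit of the tRNA splicing endonuclease (-0.92, -0.91, and -0.97). NSUN2, a tRNA methyltransferase, was higher under VIC-1911 (0.54) and olaparib (0.45).

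Other parts of the translation machinery were counted in the same way, beside 26.6%, 28.1%, and 28.6% of all genes higher and 25.8%, 25.9%, and 28% lower under the 3 treatments at 7 days. The shares after 2 days were again 7.5% higher and 7.19% lower. Of 9 cytosolic elongation and release factors after 7 days, VIC-1911 libraries had 3 higher and 3 lower, olaparib libraries 5 higher, and those with the combination 5 higher and 1 lower, with medians of 0.06, 0.10, and 0.13. After 2 days 2 were higher, EEF1A2 (0.30) and ETF1 (0.21), with a median of 0.02. Of 83 cytosolic ribosomal protein genes, 19, 24, and 40 were higher and 9, 19, and 11 lower after 7 days (4 and 2 after 2 days), with medians of 0.02, 0.04, and 0.11 (0.01 after 2 days). RPS27L, a variant ribosomal protein, led with 0.93, 1.30, and 1.44. Of 10 mitochondrial translation factors, 3, 2, and 2 were higher and 1 was lower in each after 7 days, with medians of 0.04, 0.02, and 0.01. The lower one was GFM2, a ribosome recycling factor (-0.16, -0.34, and -0.35), and after 2 days 1 was higher, GFM1 (0.33), with a median of 0.11. Of 76 mitochondrial ribosomal protein genes, 55, 44, and 44 were higher and 1, 4, and 6 lower after 7 days, with medians of 0.30, 0.21, and 0.19 (6 higher, 1 lower, and a median of 0.07 after 2 days). MRPS25 was among them, with 0.47, 0.57, and 0.60.

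The 24 other ATF4 targets counted, amino acid transporters, biosynthesis enzymes, and stress genes, were mostly lower as well, with medians farther from 0 than those of the synthetases. Of the 24, 21 were lower after 2 days of VIC-1911, and 22, 23, and 24 after 7 days of VIC-1911, olaparib, and the combination. Their medians were -0.58, -1.82, -2.03, and -1.89, beside synthetase medians on the same scale of -0.24, -1.02, -1.13, and -1.17 for the 13 listed genes. Over all genes, 7.19% were lower after 2 days, and 25.8%, 25.9%, and 28% after 7 days of the 3 treatments. The list of 24 was also chosen with earlier results of these data known, so it is no independent evidence of its direction. SLC7A11, the cystine transporter subunit that supplies the substrate of CARS, stood at 72.5 FPKM with vehicle and at 6.96, 4.40, and 4.53 FPKM under the 7-day treatments, log2 fold changes of -3.43, -4.05, and -4.01. ASNS, the asparagine synthetase that makes the substrate of NARS, was lower by -3.12 under olaparib (edgeR adjusted p = 3.2e-27) and by -2.95 under the combination, beside -0.54 and -0.47 for NARS. PHGDH, the first enzyme of serine synthesis, was lower by -0.79 after 2 days of VIC-1911 (edgeR adjusted p = 7.4e-16), beside -0.43 for SARS.

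Of the 36 genes, 21 overlap another annotated gene, so their counts are uncertain where reads could be split between genes. Among the genes described above with per-library values, GARS, SARS, KARS, RARS, VARS, and MARS2 overlap none.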

How the data were processed

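Poly(A) RNA of C4-2B cells was sequenced in 18 libraries, 3 per group. Reads were aligned to hg38 (STAR 2.6.0 in the submitters' processing notes), and the authors deposited gene counts, not normalized, and FPKM values per library for each time. The strand setting of counting is not given in the sources used here. The files hold 28 genes whose names a spreadsheet turned into dates. Counts were tested with edgeR 4.0.16 (R 4.3.3): a minimum of 10 counts in 3 or more libraries per gene, TMM scaling, quasi-likelihood test, and Benjamini-Hochberg adjustment over all genes. FPKM served for levels. Library values were given for the 4 cytosolic and 2 mitochondrial genes with the smallest adjusted p in each comparison with vehicle and for cytosolic genes that passed against the majority (HARS2 and LARS2 were added after their values were seen); from each other list at most 3 genes per comparison were named by adjusted p. Members and lists were chosen with earlier results of these data known. Alternatives were other scalings, DESeq2 1.42.0, limma 3.58.1 on log2(FPKM + 0.1) and log2(FPKM + 1), other filters, a replicate block, and each library left out. Data were also simulated with a single common dispersion and changed genes drawn from the better expressed ones, a simpler setting than the real data. There, with 2-fold changes, 100 of 100 genes were recovered at both times, and at 1.5-fold 92 (2 days) and 95 (7 days) were. False calls numbered 9 and 11. Same-numbered libraries correlated from -0.105 to 0.256 at 7 days, so the numbers were not used as pairs.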

Additional observations from a re-analysis of the deposited data

Results flagged for a closer look

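The effect of VIC-1911 on 19 synthetase genes differed between 7 and 2 days by the edgeR test of the difference itself, given here as the log2 fold change at 7 days minus that at 2 days. The difference was negative for GARS (-1.30), SARS (-1.21), CARS (-0.98), WARS (-0.89), YARS (-0.81), IARS (-0.80), AARS (-0.78), EPRS (-0.69), MARS (-0.64), TARS (-0.50), NARS (-0.49), and LARS (-0.45). It was positive for MARS2 (0.65), FARSA (0.53), LARS2 (0.40), TARS2 (0.32), FARSB (0.30), CARS2 (0.29), and VARS (0.23). Over all genes, the difference was negative for 14.2% and positive for 14.6%.

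The effect of VIC-1911 on 21 genes differed between cells with and without olaparib, given as the log2 fold change with olaparib minus that without. Olaparib and run cannot be told apart in this difference. The difference was positive for SARS (1.80), GARS (1.75), CARS (1.51), AARS (1.18), YARS (1.11), WARS (1.00), MARS (0.99), IARS (0.89), EPRS (0.76), NARS (0.69), TARS (0.54), and LARS (0.43). It was negative for MARS2 (-1.07), FARSA (-0.69), LARS2 (-0.67), FARSB (-0.62), VARS (-0.47), EARS2 (-0.39), YARS2 (-0.33), CARS2 (-0.32), and KARS (-0.19). Over all genes, the difference was positive for 21.0% and negative for 22.9%, and the 9 of 36 negative synthetase genes were near that negative share.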

How the results depend on the processing

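The 12 lower cytosolic genes at 7 days numbered 12 under every alternative in each comparison with vehicle, and no value of a single gene changed sign with a call in any of the 2412 planned or 2160 left-out-library results (28 and 59 lost the call, 29 and 10 gained it). After 2 days of VIC-1911, DESeq2 called 1 higher cytosolic and 1 higher mitochondrial gene, and the 1 lower mitochondrial gene became 2 with upper-quartile scaling and 0 with DESeq2, without a filter, and with limma at both pseudocounts. At 7 days the 1 lower mitochondrial gene under VIC-1911 became 0 with library size only, without a filter, and with limma at both pseudocounts. Between the combination and olaparib, 1 cytosolic gene was lower without a filter and with limma at both pseudocounts. In each case the cause was not tested. The replicate block changed no count (5 higher and 12 lower cytosolic genes under VIC-1911 at 7 days).

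With 1 library left out, counts after 2 days were 1 to 4 cytosolic higher, 7 to 9 cytosolic lower, 1 to 2 mitochondrial higher, and 0 to 1 mitochondrial lower. At 7 days, against vehicle, cytosolic higher genes were 4 to 5 under VIC-1911, 3 to 5 under olaparib, and 4 to 5 under the combination. The lower ones stayed at 12, with 7 to 8 at least 2-fold lower under VIC-1911 and 8 under the others. Mitochondrial higher genes were 5 to 6, 6 to 7, and 3 to 5, and lower ones 0 to 1, 1, and 1 to 3. The combination against olaparib gave 0 to 1 cytosolic genes in each direction and 2 lower mitochondrial ones, and against VIC-1911 2 higher and 7 to 9 lower cytosolic and 1 higher and 3 to 4 lower mitochondrial ones. The interaction gave 12 higher and 4 to 5 lower cytosolic and 4 to 5 lower mitochondrial genes, and the time difference 3 higher and 12 lower cytosolic and 3 to 5 higher mitochondrial ones. Without vehicle replicate 1 at 2 days 1 cytosolic gene was higher. The 2-day libraries were shallower (median 4826291 counts against 14998187), and the part of depth in the smaller 2-day counts was not tested.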
